A study of Mus musculus with 5 samples.

Results

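T cells in which no coreceptor transcript was detected were examined in 4 droplet libraries of mouse kidney. A cell was taken when it held at least 200 genes, at most 50% mitochondrial UMIs, at least 3 UMIs of Cd3d, Cd3e and Cd3g together, 0 UMIs of Cd4, Foxp3, Cd8a and Cd8b1, 0 of Csf1r, and fewer than 2 of Ncr1 and Klrb1c together. A UMI, or unique molecular identifier, marks 1 captured transcript molecule. This rule found 208 of 13823 kept cells, and these are called DN cells, for double-negative at the transcript level. They were thus selected on their CD3, Cd4, Foxp3, Cd8a, Cd8b1, Csf1r, Ncr1 and Klrb1c counts, which are given as description and were not tested. Mice were of the strain given as C57/BL6 and 8 weeks old. The groups were a sham operation at day 0, unilateral ureteric obstruction (UUO, tying off 1 ureter so that urine backs up into the kidney) at day 2 and at day 7, and reversed UUO, taken 7 days after the obstruction was undone and 14 days into the experiment. Each library pooled 3 mice and there was 1 library per time point, so differences between time points carry no replicate check and no test. The sort before loading kept live cells by DAPI, with no T cell or coreceptor antibody, and the library prepared in wells was not used here.

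Most T cells carry an alpha-beta receptor, built from Trac and Trbc constant regions, with Cd4 or Cd8 beside it. Gamma-delta T cells use Trdc and the Tcrg constant regions in place of these, mostly lack Cd4, and many live in barrier tissues where they release interleukin 17A soon after a stimulus. Other T cells with little or no coreceptor include natural killer T and mucosal-associated invariant T cells, which carry alpha-beta receptors with a fixed alpha chain and depend on the transcription factor PLZF, encoded by Zbtb16. A droplet assay reads only a small part of a cell's mRNA, so a cell that makes Cd4 can still yield 0 Cd4 UMIs, which is called dropout.

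The rule fixed CD3 detection: Cd3g, a signalling chain of the receptor complex, was seen in 206 of the 208 cells, Cd3d in 196 and Cd3e in 106. Of T cell markers outside the rule, a beta chain constant region was seen in 199, Trac in 152 and Thy1, a surface protein of T cells, in 143. Cxcr6, a chemokine receptor of tissue-dwelling lymphocytes, was seen in 138 cells (66.3%) and Il7r, the interleukin 7 receptor alpha chain, in 96 (46.2%). Nkg7, a granule protein of cytotoxic lymphocytes, was seen in 113 (54.3%). Of 732 cells past the CD3 minimum, 294 had no coreceptor UMI, of which the Csf1r condition removed 50 and the Ncr1 and Klrb1c condition a further 36. The latter removes natural killer T cells with 2 or more Klrb1c UMIs, so the DN cells cannot speak for those.

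The libraries differed in depth. Total UMIs were 18649637 to 30462683 per library, and the median per kept cell was 2709 in the sham library against 4937.5 to 6590 in the others. Cells of different libraries shared 100 barcode sequences among kept cells, none between 2 DN cells. Scrublet's highest scores marked 6 of the 208 as possible doublets. Transcripts of other cell types moved with the time point inside the DN cells. The summed level of 10 phagocyte genes was 628, 2079, 10180 and 4049 CPM (UMIs of a gene per 1000000 UMIs of the class) in the sham, day 2, day 7 and reversed libraries, and the phagocyte gene Lyz2 was seen in 80 of 82 day 7 DN cells. It was also seen in 67 of 71 CD4 T cells, 64 of 70 CD8 T cells and 53 of 55 NK cells of day 7. The summed level of 10 proximal tubule genes was 18201, 11209, 1690 and 5821 CPM. A few cells carried the early sums: the median per cell was 91.6, 36.8, 17.3 and 37.6 UMIs per 10000, and the highest cell held 673, 766, 37.7 and 325. At day 2 the same sum was 3144 CPM in CD4, 11881 in CD8 and 3502 in NK cells.

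The DN share of T cells lay between 33.9% and 50% in the 4 libraries. Among cells meeting the CD3, Csf1r, Ncr1 and Klrb1c conditions, called CD3 cells, 9 of 18 were DN in the sham library (50%, exact Clopper-Pearson 95% interval 26.0 to 74.0%), 35 of 93 (37.6%, 27.8 to 48.3%) at day 2, 82 of 227 (36.1%, 29.9 to 42.7%) at day 7 and, after reversal, 82 of 242 (33.9%, 27.9 to 40.2%). The 4 intervals overlapped. All intervals given here cover counting error only. As a share of all kept cells, DN cells were 0.229%, 1.59%, 1.84% and 2.53% in the same order, a measure that also moves with every other cell type in the library. The other CD3 cells were 154 CD4 T cells (Cd4 or Foxp3 UMIs, no Cd8), 211 CD8 T cells (Cd8a or Cd8b1 UMIs, no Cd4 or Foxp3) and 7 with both.

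**Figure D1:**
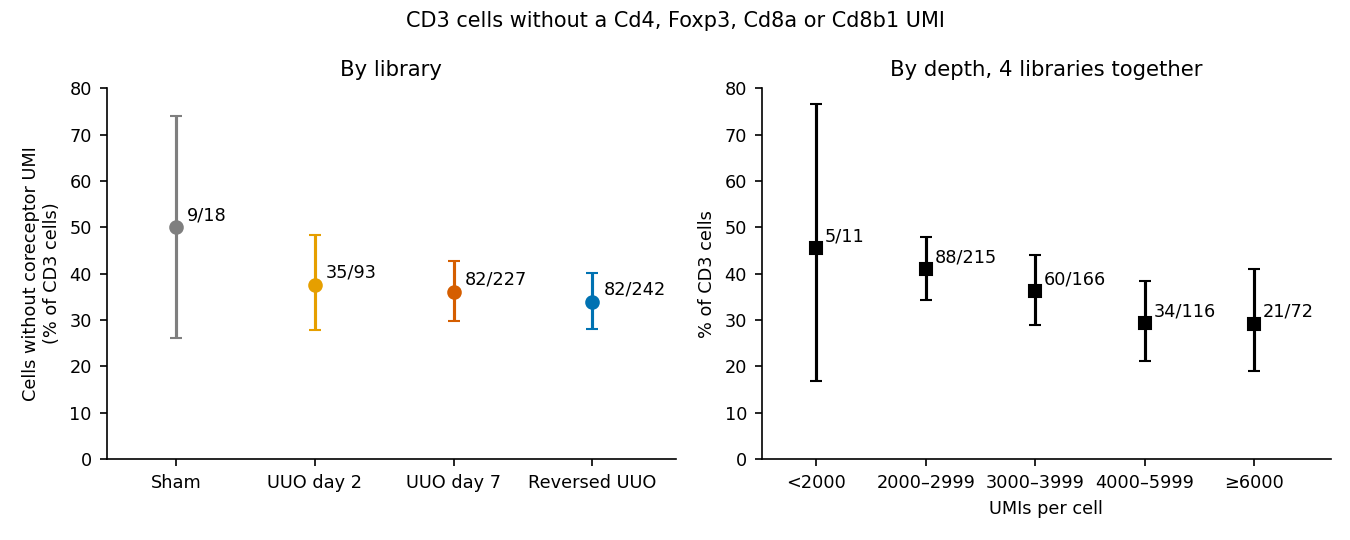
Share of CD3 cells without a coreceptor UMI, by library (left) and by UMIs per cell over the 4 libraries (right). Points are shares in percent with exact 95% binomial intervals, labelled with the cells counted; the share is 40.9% from 2000 to below 3000 UMIs and 29.2% at 6000 or more.

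How many DN cells could be coreceptor-bearing cells with a missed transcript was estimated from depth and from coreceptor UMI counts. The DN share was 40.9% of CD3 cells with 2000 to below 3000 UMIs, 36.1% from 3000 to below 4000, 29.3% from 4000 to below 6000 and 29.2% at 6000 or more, as the plot by depth shows. The intervals of the shallowest and deepest of these bands overlapped (34.3 to 47.8% and 19.0 to 41.1%). Within libraries the same bands gave 43.5, 40, 28 and 40% at day 2, 41.98, 39.4, 31.25 and 21.9% at day 7, and 39.3, 30.4, 26.2 and 33.3% after reversal, so the deepest band was not the lowest in 2 of the 3. Coreceptor capture was thin in CD4 T cells, with a median of 2 coreceptor UMIs and exactly 1 in 72 of 154 (46.8%). It was deeper in CD8 T cells, with a median of 7 and exactly 1 in 23 of 211 (10.9%). From the numbers of cells with 1 and 2 coreceptor UMIs, Chao's estimate of coreceptor-expressing cells with 0 UMIs was 74.3 cells, or 35.7% of the DN count, of which 53.25 would be CD4 and 21.1 CD8 cells. This estimate is a lower bound. A zero-truncated Poisson model gave 41.1 cells (19.8%). By library Chao's estimate was 0 of 9 DN cells in the sham, 7.95 of 35 (22.7%) at day 2, 32.9 of 82 (40.1%) at day 7 and 29.2 of 82 (35.6%) after reversal. The sham value rests on 1 CD4 and 8 CD8 T cells, too few for it to be informative.

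Cells just inside and just outside the rule are given for description. The 13 DN cells with exactly 3 CD3 UMIs held Trac in 53.8% and Trdc in 23.1%. The 55 cells with exactly 2 CD3 UMIs that met the other conditions held Trac in 20% and Trdc in none, at a median of 8528 UMIs per cell. The 20 DN cells with 1 UMI of Ncr1 or Klrb1c held Trdc in 35% and Nkg7 in 90%, and the 13 cells excluded for having 2 held them in 30.8% and 100%. The 95 CD3 cells with exactly 1 coreceptor UMI held Trac in 89.5% and Trdc in 5.26%, against 73.1% and 19.7% of DN cells. Cxcr6 was seen in 55.8% and Il7r in 51.6% of those 95 cells.

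Receptor transcripts split the DN cells into a larger alpha-beta group and a smaller gamma-delta group. Trac without Trdc was seen in 142 of 208 (68.3%), Trdc without Trac in 31 (14.9%, 10.4 to 20.5%), both in 10 and neither in 25. Of the 25 with neither, 20 held a beta chain constant region (Trbc1 or Trbc2) and 5 a gamma chain constant region. Only 5 of 208 DN cells held no receptor constant-region UMI of any kind. Of the 41 cells with Trdc, 40 also held a gamma chain constant region, which was not used to define them. Beta chain transcripts did not separate the groups: 199 of 208 DN cells held one, including 29 of the 31 with Trdc alone. Median UMIs per cell were 3433 for Trdc alone (2181 to 6361), 3226.5 for both, 3071.5 for Trac alone (1324 to 29177) and 3053 for neither, and median CD3 UMIs were 12, 8.5, 7 and 5.

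The share of gamma-delta cells among DN cells ran from 0% to 20.7% by library. Trdc without Trac was seen in 0 of 9 sham DN cells, which allows up to 33.3% at 3 cells of 9, in 6 of 35 (17.1%, 6.56 to 33.6%) at day 2, in 17 of 82 (20.7%, 12.6 to 31.1%) at day 7 and in 8 of 82 (9.76%, 4.31 to 18.3%) after reversal. The last 3 intervals overlapped. All 9 sham DN cells held Trac, as did 27 of 35, 50 of 82 and 66 of 82 in the later libraries. Outside the DN class, Trdc without Trac was seen in 0 of 154 CD4 T cells (up to 1.95% at 3 cells of 154), 2 of 211 CD8 T cells and 13 of 93 NK cells. NK cells are the lymphocytes with 2 or more Ncr1 and Klrb1c UMIs and fewer than 3 CD3 UMIs.

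**Figure D2:**
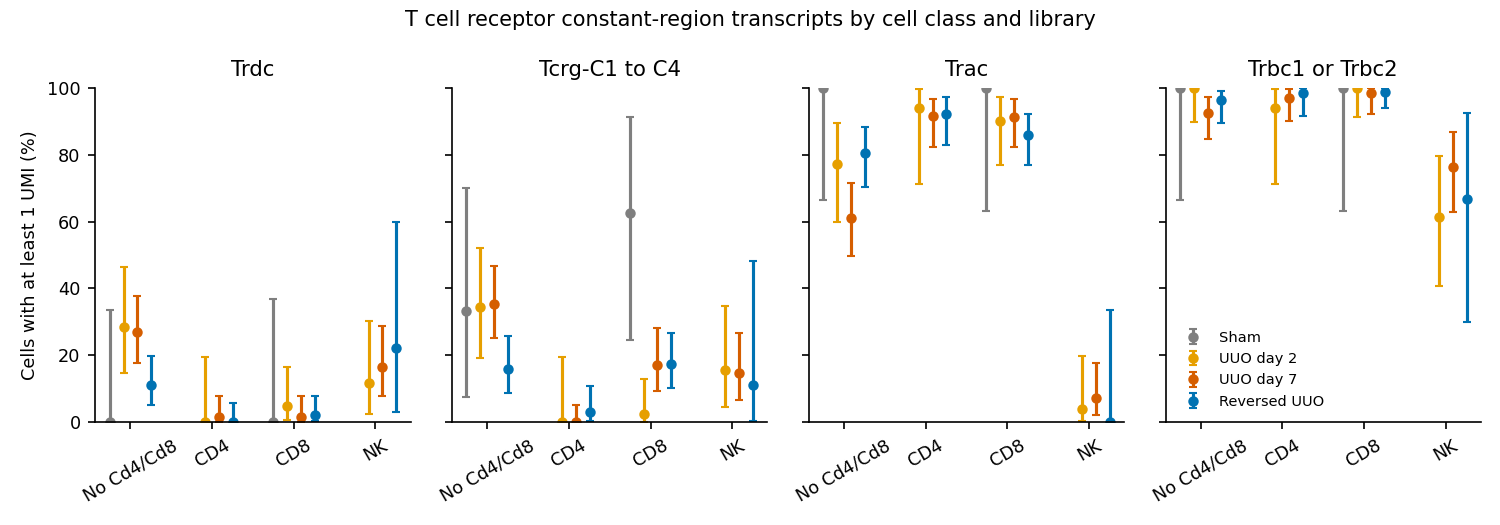
Share of cells with at least 1 UMI of each receptor constant region, by cell class and library; points are percent with exact 95% intervals, and sums of fewer than 5 cells are not drawn. Trdc was seen in 28.6%, 26.8% and 10.98% of DN cells at day 2, day 7 and after reversal, and in 0 to 4.88% of CD4 and CD8 T cells.

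Trdc, the constant region of the delta chain (GRCm38 chr14:54142851-54148868, plus strand), separated the DN cells from the coreceptor classes by level. Its summed DN level was 0 CPM in the sham library, 999 at day 2, 669 at day 7 and 270 after reversal, from 0, 146, 218 and 82 UMIs. In CD4 T cells it was 0, 0, 3.04 and 0 CPM, in CD8 T cells 0, 14.8, 35.9 and 24.4, and in NK cells 135, 42.4, 48.0 and 62.9. The DN values of the last 3 libraries lay above every value of the other classes. By share, 19.7% of DN cells held a Trdc UMI (41 cells, 14.5 to 25.8%), against 0.649% of CD4 T cells, 2.37% of CD8 T cells and 16.1% of NK cells. Thinned to 1000 UMIs per cell, which left out no cell, the shares were 17.7% in DN, 0.171% in CD4, 1.45% in CD8 and 5.11% in NK cells. Cells that should lack the gene gave a background of 0.836% in 957 endothelial cells, 0.159% in 5021 proximal tubule cells and 1.18% in 2042 phagocytes. At day 7, median UMIs per cell were 3187 in DN cells, 3437 in endothelial cells and 6647 in phagocytes. A DN cell with Trdc held a median of 10 Trdc UMIs and up to 40.

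Gamma chain constant regions were seen in 40 of the 41 DN cells with Trdc and in 17 without it. Tcrg-C1 (chr13:19214103-19217024, plus strand) had 0, 40, 73 and 15 DN UMIs in the 4 libraries, or 0, 274, 224 and 49.4 CPM. Tcrg-C2 (chr13:19304649-19307551, minus strand) was at 531, 47.9, 79.7 and 32.9 CPM, the sham value resting on 11 UMIs in 3 cells, all of which held Trac. Tcrg-C4 (chr13:19344558-19352756, plus strand) was at 0, 61.6, 55.2 and 26.3 CPM. The gamma chain constant regions include close copies, so the assignment of a UMI among those is uncertain and the sum over the regions is the safer measure. A gamma chain region was seen in 57 of 208 DN cells, 2 of 154 CD4 T cells, 34 of 211 CD8 T cells and 15 of 93 NK cells. Its presence alone therefore does not separate DN from CD8 T cells: in the sham library 5 of 8 CD8 T cells held one. Variable segments were rarely captured by this assay. Trdv4 was seen in 14 DN cells (4 at day 2, 7 at day 7, 3 after reversal), Trgv2 in 15 and Tcrg-V6 in 2. In CD8 T cells Trdv4 was seen in 1 cell and Trgv2 in 12, so Trgv2 was not particular to DN cells.

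Against CD4 T cells, the DN cells were higher in gamma-delta receptor genes and in natural killer receptor genes, and lower in some checkpoint and activation genes. The test was edgeR's quasi-likelihood test on raw UMIs summed per library and class, with the library as a block and Benjamini-Hochberg adjustment over 5098 genes. Sums under 10 cells were left out, so it rests on the day 2, day 7 and reversed libraries. Adjusted p was below 0.05 for 36 genes (0.706%), 21 higher in DN cells (0.412%) and 15 lower (0.294%). The CD4 class includes regulatory T cells by its definition, since Foxp3 counted as a CD4 mark: 42 of the 154 cells held a Foxp3 UMI. The genes of the rule were not tested.

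Of 17 genes of the gamma-delta receptor list, 5 passed the filter on low counts and were tested, and 4 were higher than in CD4 T cells. The median log2 difference of the 5 was 6.49, or 4.05 with genes at 0 in CD4 T cells placed at a bound of 3 counts, against -0.00 over all genes tested. Genes at 0 in 1 class, here and in later lists, could pass the filter only through other classes. Such counts and medians are therefore partly set by the filter. Trdc was higher by 8.16 ± 0.48 (log2, SE; adjusted p = 8.53e-11), and higher in 3 of 3 libraries. Tcrg-C1 was higher by 4.36 ± 0.66. Tcrg-C2 and Tcrg-C4 had 0 UMIs in CD4 T cells of these libraries and were at least 12.5-fold and 10.2-fold higher in DN cells. Without the day 7 library Tcrg-C1, Tcrg-C2 and Tcrg-C4 no longer passed (adjusted p = 0.0846, 0.308 and 0.490), and Tcrg-C4 did not pass without the reversed library either (0.104). Without day 7 both bounds were 4.40-fold. Trac, the alpha chain constant region (chr14:54220521-54224206, plus strand), was lower by 0.93 ± 0.17 on the log2 scale (adjusted p = 0.0034), at 657, 552 and 658 CPM in DN against 1584, 956 and 1152 in CD4 T cells. The DN value was below the CD4 value in each library, and the call was lost without the reversed library (adjusted p = 0.123).

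The gamma-delta programme list holds genes known from interleukin 17-producing gamma-delta cells, and 2 of its 6 tested genes were higher than in CD4 T cells. Cd163l1, a scavenger receptor of such cells (chr7:140218267-140231145, plus strand), had 0, 23, 29 and 6 UMIs in DN cells (0, 157, 88.9 and 19.8 CPM) and 0 in CD4 T cells. It was at least 16.9-fold higher, and at least 7.51-fold without day 7. Blk, a Src-family kinase used by these cells (chr14:63372836-63417037, minus strand), was at 0, 54.7, 76.7 and 16.5 CPM in DN cells and at 0, 0, 3.04 and 0 in CD4 T cells, a log2 difference of 4.82 ± 1.02 (adjusted p = 0.0192). Both genes were thus present in the last 3 libraries of DN cells and absent or nearly so from CD4 T cells. Cd163l1 did not pass without day 7 (adjusted p = 0.247), nor Blk without the reversed library (0.107). With DESeq2, Tcrg-C1, Cd163l1 and Blk did not pass.

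Natural killer receptors were the larger group. Of 19 cytotoxic and NK genes tested, 9 were higher than in CD4 T cells and 0 lower, with a median log2 difference of 1.44. Klra7, an inhibitory Ly49 receptor for class I molecules (chr6:130218605-130233322, minus strand), was at 0, 123, 178 and 122 CPM in DN cells, from 0, 18, 58 and 37 UMIs in 0, 5, 12 and 6 cells, and at 0 in every CD4 library. It was at least 33.0-fold higher (adjusted p = 7.79e-06), and at least 14.2-fold without day 7. Klrk1, the activating receptor NKG2D, was higher by 3.10 ± 0.35, and Klrd1, the CD94 chain that pairs with NKG2 receptors, by 2.56 ± 0.38. Klre1 was higher by 4.27 ± 0.53, Klrc2 by 3.89 and Klra1 by 4.99 ± 0.87, while Klrc1, encoding NKG2A, was at least 9.92-fold higher, or 4.92-fold without day 7. Klra1, Klra7 and Klra9 belong to a family of near copies, so the split of reads among them is uncertain. Cd7 was higher by 3.12 ± 0.39 and Ccl5, a chemokine of memory and cytotoxic T cells, by 1.44 ± 0.19. The granule gene Nkg7 did not go with them (log2 difference 0.06, not passing). Klra7, Klrk1, Klrd1, Klre1, Klrc1, Cd7 and Ccl5 passed without any 1 of the 3 libraries, and Klra1 did not pass without the reversed library (adjusted p = 0.181) or Klrc2 without day 7 (0.141). Of 23 DN cells with Klra7, 16 held Trac, 3 Trdc and 22 Nkg7.

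Of 12 checkpoint and activation genes tested, 5 were lower in DN cells than in CD4 T cells and 0 higher. The rule bars Foxp3 from DN cells and places cells with it in the CD4 class. Differences in genes of regulatory T cells are therefore not independent of the selection. The costimulatory receptors Cd28 (log2 difference -0.74, adjusted p = 0.240) and Icos (-0.74, 0.337) did not pass. Tnfrsf4, encoding OX40 (chr4:156013843-156016612, plus strand), was at 157, 120 and 145 CPM in DN cells of day 2, day 7 and reversal against 691, 449 and 682 in CD4 T cells, and lower by 2.08 ± 0.23 on the log2 scale (adjusted p = 7.79e-06). The DN values lay below all CD4 values of these libraries. Its sham DN level of 869 CPM was 18 UMIs of 1 cell. Ctla4, an inhibitory receptor, was lower by 1.60 ± 0.31, Tnfrsf9 by 1.52, Tnfrsf18, encoding GITR, by 1.01 ± 0.20 and Izumo1r (the folate receptor 4 of regulatory T cells) by 1.29 (adjusted p = 0.0499). Izumo1r was lower in 2 of 3 libraries, with 47.9 CPM in DN against 35.7 in CD4 T cells at day 2. Ikzf2, a transcription factor of regulatory and some innate-like T cells, did not pass (log2 difference -0.85, adjusted p = 0.155). Klrg1 was lower by 1.99 ± 0.40 and the adhesion receptor Cd6 by 1.11. Ctla4 and Tnfrsf18 did not pass without day 7 (0.0549 and 0.297) or without the reversed library (0.174 and 0.185). Tnfrsf9 and Cd6 did not pass without day 7 (0.159 and 0.172) or without the reversed library (0.868 and 0.144), nor Izumo1r without day 7 (0.813) or Klrg1 without the reversed library (0.125). Of the genes named against CD4 T cells, Trdc, Klra7, Klrk1, Klrd1, Klre1, Klrc1, Cd7, Ccl5 and Tnfrsf4 passed with each library left out, with no block and with DESeq2, and of these Trdc alone passed in cells with at least 4000 UMIs. Of the other-cell-type lists, 1 of 10 proximal tubule genes was higher than in CD4 T cells (Spp1, by 1.32, adjusted p = 0.0499) and 0 of 10 phagocyte genes passed in either direction. For Spp1, 1 DN cell held 529 of 922 day 2 UMIs, and it did not pass without the reversed library (0.971). The gene furthest below CD4 T cells was the chemokine Ccl1, for which 1 CD4 cell held 175 of 176 day 2 UMIs. Ccl1 was lower in 3 of 3 libraries, and did not pass with no replicate block (adjusted p = 0.0975).

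**Figure D3:**
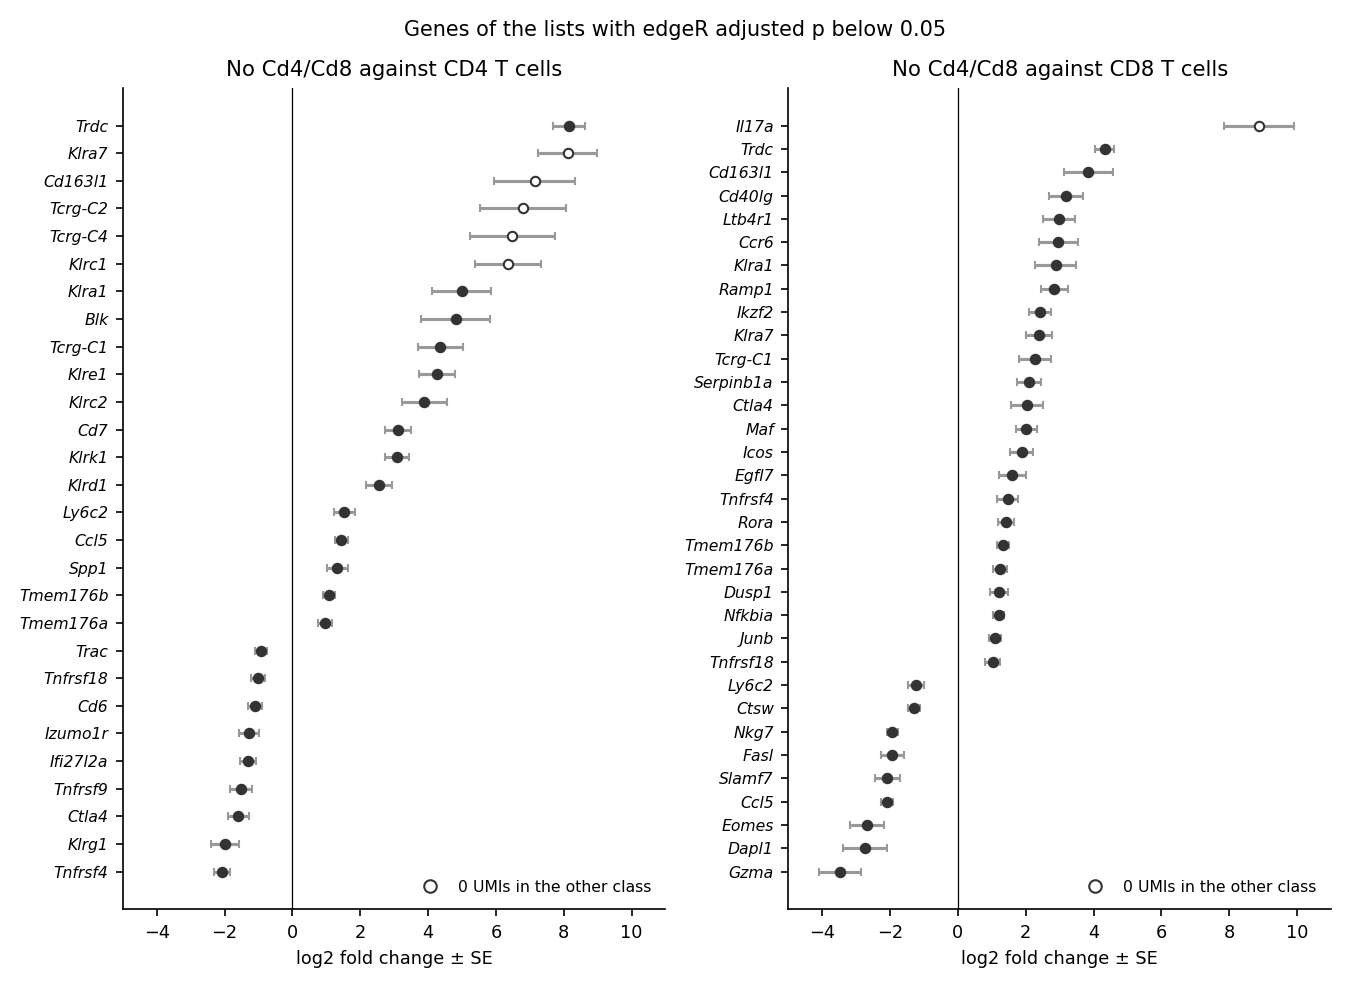
Fitted log2 fold change with SE of every listed gene with adjusted p below 0.05, DN against CD4 T cells (left) and against CD8 T cells (right), from day 2, day 7 and reversed libraries. Open circles mark genes with 0 UMIs in the other class, whose fitted fold depends on the prior count; Trdc is at 8.16 and 4.32, Tnfrsf4 at -2.08 and 1.46.

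Against CD8 T cells the DN cells were higher in interleukin 17-type genes and some checkpoint and activation genes, and lower in some granule and effector genes. By the same test 77 genes had an adjusted p below 0.05 (1.51%), 49 higher in DN cells (0.961%) and 28 lower (0.549%). Of 5 gamma-delta receptor genes 2 were higher: Trdc by 4.32 ± 0.28, a pooled ratio of 21.9 (14.4 to 35.0), and Tcrg-C1 by 2.27 ± 0.46. Tcrg-C2 did not pass (log2 difference 0.63, adjusted p = 0.821), and Trac did not (-0.48, 0.240). Of 6 gamma-delta programme genes 3 were higher: Cd163l1 by 3.84 ± 0.73, Serpinb1a by 2.10 and Maf, a transcription factor shared by these cells and helper cells, by 2.02 ± 0.30. Without day 7, Cd163l1 and Serpinb1a did not pass (adjusted p = 0.0662 and 0.0906).

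Interleukin 17-type genes stood highest in this comparison, with 6 of 8 higher and a list median of 2.19. Il17a, the cytokine itself (chr1:20730905-20734496, plus strand), had 0, 147, 43 and 6 UMIs in DN cells of the 4 libraries, in 0, 7, 10 and 1 cells, which is 0, 1005, 132 and 19.8 CPM. A single day 2 cell held 98 of the 147 UMIs. CD8 T cells and NK cells held 0 UMIs in every library, and the DN level was at least 73.9-fold higher than in CD8 T cells (adjusted p = 2.91e-05). Without the day 2 library the bound was at least 17.5-fold, and with no block the gene did not pass (0.0588). Ccr6, a chemokine receptor of interleukin 17-producing cells, was higher by 2.96 ± 0.57, Ltb4r1, a leukotriene B4 receptor, by 2.98 ± 0.47, and Rora, a nuclear receptor of interleukin 17-producing and innate lymphoid cells, by 1.42 ± 0.23. Tmem176b and Tmem176a were higher by 1.33 and 1.25, the latter not passing without day 7 (0.0706). Ccr6 did not pass without day 7 (adjusted p = 0.443) or without the reversed library (0.0554). In CD4 T cells Il17a was at 35.7, 78.9 and 30.1 CPM in the last 3 libraries, in 1, 3 and 3 cells, and the difference from DN cells did not pass (1.78 ± 0.48, adjusted p = 0.136). Of the same 8 genes, Tmem176a and Tmem176b alone were higher than in CD4 T cells, by 0.96 and 1.07, and neither passed without day 7 (0.146 and 0.0602) or without the reversed library (0.123 and 0.0553).

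Of 12 checkpoint and activation genes, 6 were higher in DN than in CD8 T cells and 0 lower. Cd40lg, the helper ligand for CD40, was higher by 3.18 ± 0.50, Ikzf2 by 2.42 ± 0.31, Ctla4 by 2.05, Icos by 1.88, Tnfrsf4 by 1.46 ± 0.31 and Tnfrsf18 by 1.03. Ikzf2 stood at 88.9, 356 and 402 CPM in DN cells of day 2, day 7 and reversal, at 310, 468 and 795 in CD4 T cells and at 54.3, 58.7 and 43.4 in CD8 T cells. In each of the 3 libraries the DN value was between the others, as it was for Cd40lg, Ctla4, Icos, Tnfrsf4 and Tnfrsf18. On the CD4 side this order passed the test for Ctla4, Tnfrsf4 and Tnfrsf18, and did not for Ikzf2, Icos or Cd40lg (log2 difference of Cd40lg -0.48, adjusted p = 0.890). Other members of the list did not follow this order: the log2 difference of Lag3 was -1.97 from CD4 and -2.35 from CD8 T cells, and that of Pdcd1 -0.92 and 0.06, none of these passing. Ctla4, Icos and Tnfrsf4 did not pass without day 7 (adjusted p = 0.561, 0.0748 and 0.199), Tnfrsf18 did not without any 1 library (0.0529 to 0.113), and Cd40lg and Ctla4 did not without the reversed library (0.154 and 0.0574). Ramp1, part of the receptor for the neuropeptide CGRP, was also higher than in CD8 T cells, by 2.84 ± 0.40. Of 13 immediate early genes, which dissociation is known to induce, 3 were higher (Nfkbia, Dusp1 and Junb, by 1.20, 1.22 and 1.09), of which Dusp1 and Junb did not pass without the reversed library (0.317 and 0.0656). Of the other-cell-type lists 1 gene passed, the endothelial gene Egfl7 (higher by 1.60, and not passing without day 7 at 0.0800), and its part in the differences, like that of cell handling, was not tested.

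Some granule and effector genes were lower than in CD8 T cells. Of 19 cytotoxic and NK genes, 5 were lower and 2 higher, with a median log2 difference of -0.75, or -0.68 with the bound and without 1 gene at or under it in both classes. Nkg7 was at 547, 613 and 724 CPM in DN cells against 2217, 2438 and 2175 in CD8 T cells, lower by 1.93 ± 0.16 (adjusted p = 2.70e-08). Ccl5 was lower by 2.09 ± 0.18, the protease gene Gzma by 3.48 ± 0.63, the transcription factor Eomes by 2.69 ± 0.51 and Ctsw by 1.29 ± 0.17. Gzmk, a granzyme of memory CD8 cells outside the lists, was lower by 3.79 ± 0.45, and Fasl, the death ligand, by 1.94. The genes higher in DN cells were the Ly49 receptors Klra7 (2.38 ± 0.38) and Klra1 (2.89). So DN cells lay between CD4 and CD8 T cells for Ccl5, and above both for Klra7. Eomes, Klra1 and Fasl did not pass without day 7 (adjusted p = 0.698, 0.358 and 0.0586), nor Eomes and Fasl without the reversed library (0.106 and 0.0554). Gzma was lower by 1.69 without day 2, where CD8 T cells held 583 CPM. Of the genes named against CD8 T cells, Trdc, Nkg7, Ctsw, Ramp1, Ikzf2, Maf, Ltb4r1, Rora, Ccl5, Gzmk and Klra7 passed with each library left out, with no block and with DESeq2, and Trdc, Nkg7, Ctsw and Ramp1 of these in cells with at least 4000 UMIs.

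Cxcr6 and Il7r passed the test against neither T cell class. Cxcr6 (chr9:123806475-123811760, plus strand) was at 676, 492, 764 and 543 CPM in DN cells of the 4 libraries, at 345, 355 and 463 in CD4 T cells of the last 3, and at 1314, 370, 682 and 697 in CD8 T cells. The DN values lay above the CD4 values and overlapped the CD8 values. The log2 difference was 0.66 ± 0.19 from CD4 (adjusted p = 0.165) and -0.04 ± 0.18 from CD8 T cells (0.993). Il7r (chr15:9505788-9530176, minus strand) was at 96.6, 246, 267 and 333 CPM in DN cells, at 274, 134 and 305 in CD4 and at 0, 188, 166 and 184 in CD8 T cells. DN and CD4 values overlapped, and the differences did not pass (0.37 ± 0.22, adjusted p = 0.849, and 0.59 ± 0.21, 0.257). Of the 7 tissue residency and 11 interleukin 7 signalling genes tested, 0 passed against CD4 T cells. The unadjusted p was below 0.05 for 367 genes in all in that comparison, and DESeq2 called 19.

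**Figure D4:**
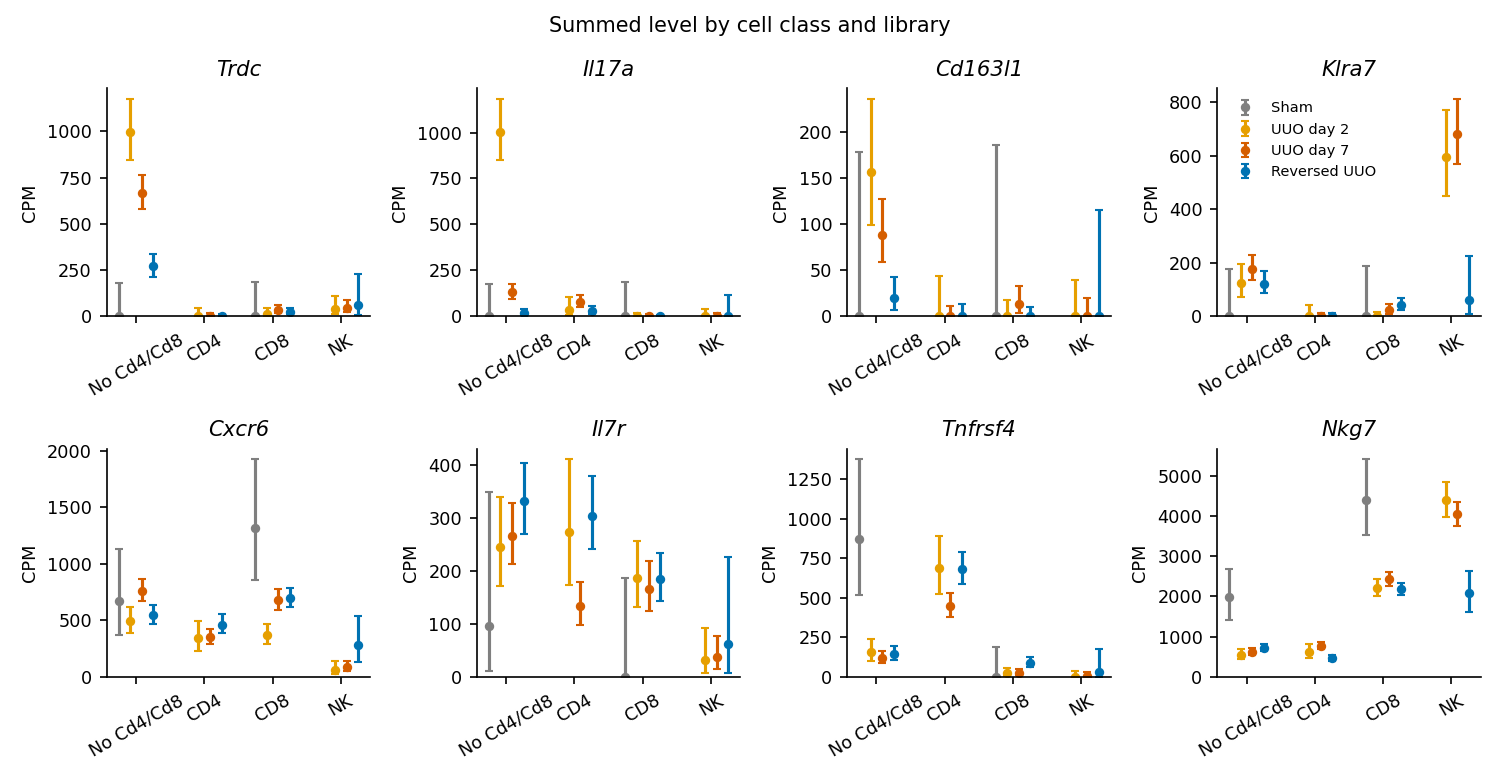
Summed level in CPM of 8 genes by cell class and library, with exact 95% Poisson intervals; each panel has its own linear axis from 0, and sums of fewer than 5 cells are not drawn. Trdc, Il17a and Cd163l1 are highest in DN cells at day 2, Klra7 and Nkg7 are highest in NK cells among the day 2 and day 7 libraries, and Tnfrsf4 is higher in CD4 T cells than in DN cells in each library drawn for both.

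Against NK cells the comparison covers day 2 and day 7 alone. CD3, Ncr1 and Klrb1c counts were all used to part the classes. T cell and NK cell genes that go with those counts are therefore not independent of the selection, and their differences are given as description. It gave 236 genes (4.63%), 115 higher (2.26%) and 121 lower (2.37%). Cxcr6 was higher in DN cells by 2.95 ± 0.30 and Il7r by 2.85 ± 0.40. Of 19 cytotoxic and NK genes 17 were lower and 0 higher. The log2 difference was -2.66 ± 0.18 for Nkg7, -2.22 ± 0.31 for Klra7 and -6.95 ± 0.94 for the perforin gene Prf1. Klra8, the activating receptor Ly49H, had 0 UMIs in all DN cells. Klra7 was thus present in DN cells above both T cell classes and below NK cells.

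Among the DN cells, Trdc-only and Trac-only cells had different partner genes. The planned fit at 10 cells per sum could not be made, so a minimum of 5 cells was chosen after seeing the data, which left 918 genes and 2 residual degrees of freedom. Adjusted p was below 0.05 for 3 genes (0.327%), all higher in Trdc-only cells: Tcrg-C1 by 6.66 ± 0.47 (adjusted p = 0.0001), Cd163l1 by 8.36 ± 0.78 (0.0049) and Tcrg-C2 by 4.26 ± 0.69 (0.0439). Cd163l1 was at 0 in the Trac-only cells, so its fitted fold is no bound. All 3 genes lost the call without the day 2 library (adjusted p = 0.0696, 0.637 and 0.637), as did Tcrg-C1 without day 7 (0.119), where Cd163l1 and Tcrg-C2 were not testable. With no replicate block Tcrg-C2 was at 2.44 and did not pass (0.638). At this size 84 genes had an unadjusted p below 0.05. Cxcr6 (1.52 ± 0.30, adjusted p = 0.0823) and Il7r (0.67, 0.649) did not pass.

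**Figure D5:**
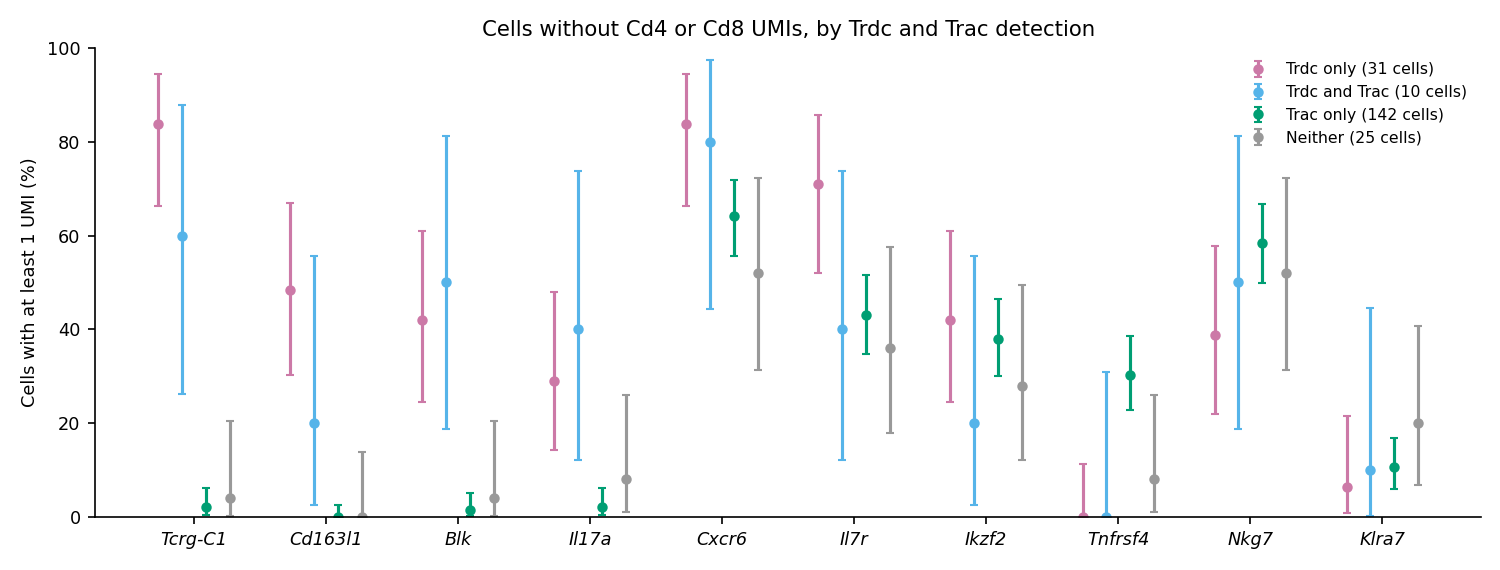
Share of DN cells with at least 1 UMI of 10 genes, by detection of Trdc and Trac, over the 4 libraries together. Points are percent with exact 95% intervals; Cd163l1 was seen in 48.4% of 31 Trdc-only cells and in none of 142 Trac-only cells, and Tnfrsf4 in none of the former and 30.3% of the latter.

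By share of cells, the gamma-delta programme and the checkpoint and activation genes each held members that went with 1 receptor group and members that did not. The plot by receptor detection shows some of them. Cd163l1 was seen in 48.4% of the 31 Trdc-only cells, 20% of the 10 with both and 0% of the 142 Trac-only cells. Blk was seen in 41.9%, 50% and 1.41%, and Serpinb1a in 48.4%, 20% and 9.15%. Maf, of the same list, was seen in 51.6%, 40% and 40.1%. Cxcr6 was seen in 83.9%, 80% and 64.1%, and Il7r in 71.0%, 40% and 43.0%. Tnfrsf4 and Ctla4 were seen in none of the 41 cells with Trdc and in 30.3% and 19.0% of Trac-only cells. Cd40lg was seen in 12.9% of Trdc-only and 25.4% of Trac-only cells. Ikzf2 (41.9% and 38.0%) and Icos (29.0% and 28.2%) had overlapping intervals in Trdc-only and Trac-only cells. Nkg7 was seen in 38.7%, 50% and 58.5%, so it was common in each group. These shares pool libraries that hold the groups in different proportions, and were not tested.

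Il17a was found mostly but not only beside Trdc. Of 18 DN cells with Il17a, 13 held Trdc, 7 held Trac, 17 held Cxcr6, 11 Il7r, 10 Blk and 8 Cd163l1. Only 2 held Nkg7 and 0 held Klra7. Il17a cells were 9 of 31 Trdc-only, 4 of 10 with both, 3 of 142 Trac-only and 2 of 25 with neither. Their median was 3.5 Il17a UMIs per cell. Il17f, the close relative of Il17a, had 13 UMIs in DN cells, and Il23r, the receptor for the cytokine that sustains these cells, was seen in 7.

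Of the PLZF and innate-like list, at least 1 UMI was seen in 9 of 9, 33 of 35, 79 of 82 and 77 of 82 DN cells by library, Cxcr6 and Il7r being members. The counts were as near complete in CD8 T cells (8 of 8, 40 of 41, 68 of 70 and 90 of 92) and, from day 2 on, in CD4 T cells (16 of 17, 70 of 71 and 62 of 65). The gene of PLZF itself was seen in few. Zbtb16 (chr9:48654297-48836222, minus strand) was seen in 8 DN cells, 2 at day 2 and 6 at day 7, with 7 and 9 UMIs, and in 0 CD4 and 0 CD8 T cells. All 8 held Trdc, 7 held Cd163l1 and 4 held Il17a. Other members of the list were not restricted in this way: of 75 DN cells with Ramp1, 25 held Trdc and 47 Trac, and of 53 with Ly6c2, 11 and 40. The invariant alpha segments known from natural killer T cells (Trav11) and mucosal-associated invariant T cells (Trav1) had 1 UMI each in DN cells, at a depth where variable segments are seldom read. Of 11 PLZF and innate-like genes tested, 1 was higher than in CD4 T cells (Ly6c2, by 1.53, not passing without day 7, adjusted p = 0.227), and against CD8 T cells 1 was higher (Ramp1) and 2 were lower (Slamf7, not passing without day 7 at 0.119, and Ly6c2). Type 2 innate lymphoid marks gave 0 of 4 higher against either class. Of these, Klrg1 was lower than in CD4 T cells, not passing without the reversed library (adjusted p = 0.125). Gata3 was at 0, 75.2, 123 and 155 CPM, and Il1rl1, the interleukin 33 receptor, was seen in 7 DN cells, none of which held Trdc.

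Gamma-delta, killer and helper transcripts were next counted per cell, in sets chosen after their values were seen. A gamma-delta constant region (Trdc or Tcrg-C, at least 1 UMI) was present in 58 DN cells (27.9%). At least 2 UMIs of the killer receptors Klra1, Klra7, Klra9, Klrc1, Klrc2, Klrd1, Klre1 and Klrk1 were present in 45 (21.6%). At least 2 of Cd40lg, Ctla4, Icos, Ikzf2 and Tnfrsf4, here called the helper set, were present in 105 (50.5%). That set left out other genes of the checkpoint and activation list, among them Tnfrsf18, Lag3 and Pdcd1. Its name does not type the cells, since Ctla4 is inhibitory and Ikzf2 belongs to regulatory and some innate-like T cells. None of the 3 sets was present in 51 (24.5%). Of the 45 cells of the killer set 22 also held a gamma-delta region, as did 20 of the 105 of the helper set, and 16 cells were in both the killer and the helper set. By library the gamma-delta set held 3 of 9, 12 of 35, 30 of 82 and 13 of 82 DN cells, the killer set 3, 7, 20 and 15, and the helper set 4, 12, 42 and 47. CD4 T cells had 3, 7 and 119 of 154 in the 3 sets, and CD8 T cells 35, 110 and 20 of 211. The 3 sham cells of the gamma-delta set held a gamma chain region and Trac but no Trdc.

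Between time points, values describe libraries. The sham library had too few UMIs for a ratio per gene. From day 2 to day 7, of 2294 genes with at least 30 summed UMIs, 216 were 2-fold or more higher (9.42%) and 74 lower (3.23%) in DN cells, and from day 7 to reversal 157 of 3158 were higher (4.97%) and 126 lower (3.99%). Trdc had a log2 ratio of -0.58 (-0.89 to -0.27) from day 2 to day 7 and -1.31 (-1.69 to -0.93) from day 7 to reversal. In the latter step the ratio in CD4 and CD8 T cells together was -0.39. The intervals of these ratios treat each UMI as a separate draw. The UMIs of Trdc and Il17a came from few cells with several UMIs each, so the intervals leave out the spread among cells. From day 2 to day 7, 0 of 3 gamma-delta receptor genes were past 2-fold in DN cells. Their median log2 ratio was -0.29, and 1.60 in the other T cells. All 3 gamma-delta receptor genes with enough UMIs were 2-fold or more lower after reversal, with a median log2 ratio of -1.31, and -0.18 in the other T cells. Of 5 gamma-delta programme genes 3 were 2-fold or more lower and 1 higher, with a median of -1.32, and -1.21 in the other T cells. Il17a was at -2.68 (-4.09 to -1.48) after reversal, against -1.62 in the other T cells. Alpha-beta receptor genes had 0 of 3 past 2-fold and a median of 0.25. Trdc was seen in 10 of 35, 22 of 82 and 9 of 82 DN cells at day 2, at day 7 and after reversal, and the median in those cells was 13, 9.5 and 11 Trdc UMIs.

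Other gene groups were compared by time point with the same ratios in the other T cells. Of 7 interferon response genes with enough UMIs, 4 were 2-fold or more higher at day 7 than at day 2, with a median log2 ratio of 1.54, and 1.22 in the other T cells. Isg15, an interferon-induced ubiquitin-like protein, was at 13.7, 101 and 194 CPM in DN cells of day 2, day 7 and reversal. From day 7 to reversal, 2 of 12 interferon response genes were 2-fold or more higher. Their median was 0.41, and -0.49 in the other T cells. Of 10 immediate early genes, 4 were 2-fold or more lower at day 7, with a median of -0.90 against 0.18 in the other T cells. Of 8 cell cycle genes, 6 were 2-fold or more lower after reversal than at day 7, with a median of -1.40 against -1.01. Mki67, a mark of dividing cells, was at 27.4, 101 and 19.8 CPM, in 2, 8 and 6 DN cells, and 1 day 7 cell held 14 UMIs. From day 2 to day 7, 2 of 11 cell cycle genes were 2-fold or more higher. Their median was -0.01 against 1.10 in the other T cells. In these steps all 10 phagocyte genes were 2-fold or more higher at day 7 than at day 2 (median 2.54, and 2.96 in the other T cells), and all 10 were lower after reversal, 8 of them 2-fold or more. All 5 tubule genes with enough UMIs were lower at day 7 (median -2.60, and -1.50 in the other T cells), a step in which a few day 2 cells held much of the DN sum, and all 7 were higher after reversal, 6 of them 2-fold or more (median 2.28, and 2.20). The part of these transcripts in the other time-point ratios was not tested.

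The genes that led the time-point ratios included markers of other cell types and genes read from 1 cell. From day 2 to day 7 the 5 furthest up were H2-DMa, Hbb-bs, Apoe, Igkc and Ehd4, and Apoe, a lipid carrier abundant in phagocytes, went from 137 to 2205 CPM with a log2 ratio of 4.00 (4.15 in the other T cells). Among the furthest down were Spink1, Guca2b, Gpx3 and Gzmc, and Gpx3, a secreted tubule enzyme, went from 2695 to 187 CPM. After reversal, Dlk1, Meg3, Igfbp5 and Acsm2 were among the furthest up. For Dlk1 and Meg3 all 48 and 41 UMIs, and for Igfbp5 62 of 65 UMIs, came from 1 cell per gene. The 5 furthest down were Hist1h2ap, Gzmb, H2afx, S100a9 and Il17a, of which Gzmb had 42 of its 80 day 7 UMIs in 1 cell.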

How the data were processed

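Whole kidneys of mice were digested on ice, live cells were sorted by DAPI and 3' droplet libraries (10x V2 chemistry) were made, per the labels' protocols. What the authors deposited are unnormalized UMI counts, 28692 genes by cells. Cell Ranger, STAR and the build GRCm38 (mm10) are named, without versions, per the submitters' processing notes. Cell calling is not given in the sources used here. The deposited matrices held 5938, 2739, 4504 and 3695 cells, of which 3933, 2207, 4447 and 3236 were kept; total and median UMIs are given with the results. Coordinates are from GENCODE's GRCm38 annotation.

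The cells, the 22 gene lists (251 of 252 genes in the files) and the tests were chosen with earlier results of these data known. UMIs were added up within each class of a library and tested with edgeR 4.0.16 (R 4.3.3): TMM, filterByExpr, the library as a block, at least 10 cells per sum, 11 sums of 4 classes and 5 residual degrees of freedom. Whether the 3 mice of a library vary as libraries do cannot be seen in pooled samples. DESeq2 1.42.0 was an alternative. Log2 ratios between time points used log2(CPM + 1), which understates the change of low genes, with exact conditional binomial intervals, and bounds used 3 counts over a class. Doublets were not removed in the main analysis; in an alternative, the highest Scrublet scores were, at 0.8% per 1000 deposited cells, since its automatic threshold marked 35 of 13823 cells. On simulated counts for the DN and CD4 comparison, 46.0% of 2-fold and 85.0% of 4-fold changes were recovered over 4790 genes. Against CD8 cells 47% and 89% were recovered, and against NK cells 17% and 63%. False calls against CD4, CD8 and NK cells numbered 9, 8 and 3. Changes were planted only in genes with a mean above 3 counts per sum, and libraries differed in depth alone. The rates therefore do not cover lower genes or differences between libraries. Genes named are those of the lists, the 10 furthest up and down per class comparison and 5 per time-point step, leaving out mitochondrial, ribosomal and unnamed genes, and some of these are given in the counts alone or are not reported here. Alternatives were other limits on mitochondrial UMIs, CD3, depth and cells per sum, no TMM, no filter, no block, other pseudocounts and each library left out.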

Additional observations from a re-analysis of the deposited data

How the results depend on the processing

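The DN share of CD3 cells was 27.5% at day 7 and 29.3% over all libraries in cells with at least 4000 UMIs, and 41.3% after reversal and 40.03% over all with a CD3 minimum of 2. The called genes against CD4, CD8 and NK cells numbered 19, 34 and 135 with DESeq2, 12, 26 and 142 with no replicate block, and 2, 11 and 20 in cells with at least 4000 UMIs, where fewer cells enter. With no filter on low counts they were 75 and 144 against CD4 and CD8 cells. Leaving out each library in turn gave 15 to 97, 41 to 134 and 81 to 223, and 0 to 43 for Trdc-only against Trac-only cells. The labels give the libraries no shared replicate numbers, so the block is the library itself. Without it, of the 32 genes named as called against CD4 cells 20 lost the call, among them Blk, Cd163l1, Tcrg-C2, Tcrg-C4, Trac, Ctla4 and Klrg1, and against CD8 cells 22 of 39, among them Il17a, Cd163l1, Tcrg-C1, Gzma and Tnfrsf4. With DESeq2, 13 and 16 lost it. In cells with at least 4000 UMIs, Rgs1 against NK cells turned to -0.24; Trdc passed against CD4 and CD8 cells. With no TMM factors the split against CD8 cells was 65 higher and 26 lower. From day 7 to reversal, TMM factors gave 132 higher and 157 lower genes. Without the highest doublet scores the log2 ratio of Guca2b from day 2 to day 7 was -2.57. Other causes of lost calls were not tested. The sham library, with 9 DN cells, entered none of the class tests.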
